A study of Mus musculus with 2 samples.

Results

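The 8 mouse microRNAs (miRNAs) described here, mmu-miR-5121, mmu-miR-5100, mmu-miR-6366, mmu-miR-3963, mmu-miR-3968, mmu-miR-8117, mmu-miR-6360 and mmu-miR-1949 (written below without the species prefix), carry high numbers in their names and were late additions to the mouse miRNA registry. They were selected on brightness and on the difference between these same arrays, as entries of that kind that were among the brightest or the most different, so their brightness and their differences are given as a description and no test was made on them. They are 8 of the 1881 mouse miRNAs on the array and take 16 of its 4415 probes, 2 probes each, and all 8 were measured on both arrays.

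The samples were whole femurs, bone and marrow together, from female wild-type mice of C57BL/6 background aged 9 months. One group had its ovaries removed (OVX), which ends most estrogen production, and the other had sham surgery. Each group was 1 RNA sample pooled from 4 mice and was read on 1 single-colour Agilent miRNA array, so neither group has replicates and the spread between mice is not known. The interval between surgery and collection is not given in the sources used here. In such whole-tissue RNA, fewer cells of a type and less RNA per cell cannot be told apart.

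A miRNA is a short RNA cut by Drosha and Dicer from a folded hairpin, and it guides Argonaute proteins to target messages mainly through its seed, bases 2 to 8. Many entries that joined the registry in the sequencing era rest on reads alone, and some of these reads are fragments of other abundant small RNAs. Transfer RNAs (tRNAs) carry a TΨC arm whose loop nearly always begins with the letters TTC in the gene, and their mature 3′ end is CCA, added after transcription. C/D small nucleolar RNAs (snoRNAs), which guide methylation of ribosomal RNA and are mostly made from introns of ribosomal and other growth genes, carry a C box, written UGAUGA, near their 5′ end and a D box, CUGA, near their 3′ end.

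The mature sequences show what each entry claims to be, and 6 of the 8 are printed from RefSeq (build GRCm38.p6) with the seed in capitals.
miR-5121: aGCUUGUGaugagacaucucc
miR-5100: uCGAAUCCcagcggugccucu
miR-6366: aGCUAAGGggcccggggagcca
miR-3963: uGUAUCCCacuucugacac
miR-3968: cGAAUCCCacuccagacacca
miR-8117: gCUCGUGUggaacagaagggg

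In that build miR-5121 lies at chr7:45126925-45126945 on the minus strand and miR-5100 at chr11:60728698-60728718 on the plus strand. miR-6366 lies at chr16:18165093-18165114 (minus), miR-3963 at chr3:151023839-151023857 (minus), miR-3968 at chr11:115447969-115447989 (minus) and miR-8117 at chr5:50252823-50252843 (plus). The array files, which use build mm9, list all 240 spots of these 8 miRNAs as unmapped, so they give no position for them. None of the 6 seeds was shared with another of the 1679 mature mouse sequences. The seeds of miR-5100 and miR-3968 nevertheless overlap with a shift of 1 base, because both molecules begin with nearly the same letters.

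The probes of the array read the other end of the molecule. The longer probe of each of the 6 is printed 5′ to 3′, and the capital marks its last base, which is the only base the shorter probe lacks.
miR-5121 probe: ggagatgtctcatcacA
miR-5100 probe: agaggcaccgctgG
miR-6366 probe: tggctccccggG
miR-3963 probe: gtgtcagaagtgggaT
miR-3968 probe: tggtgtctggagtgG
miR-8117 probe: ccccttctgttccaC

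Each probe is the complement of the miRNA's 3′ part. The longer probe covers bases 5 to 21 in miR-5121, 8 to 21 in miR-5100, 11 to 22 in miR-6366, 4 to 19 in miR-3963, 7 to 21 in miR-3968 and 7 to 21 in miR-8117. No probe therefore covers a whole seed, and a fragment of another RNA that holds the same 3′ letters would also be complementary to it. The probes of miR-6366 are 11 and 12 bases long with 81.8% and 83.3% G and C, against a median of 16 bases and 53.3% over all probes of the array. Probes of 12 bases or fewer are 8.09% of the array. No other mature miRNA in the RefSeq table contained the stretch that any of these 12 probes covers.

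miR-5121 overlaps a snoRNA gene base for base. All 21 bases of the mature sequence lie inside Snord33, a C/D snoRNA gene of 82 bases, and the first base of miR-5121 falls exactly on one end of Snord33, at a distance of 0 bases. Both lie inside Rpl13a, which encodes a protein of the large ribosomal subunit and also holds Snord34, Snord32a and Snord35a. The hairpin of miR-5121 is on the minus strand, the strand of Rpl13a in RefSeq, and shares 28 of its 74 bases with Snord33. Bases 7 to 12 of miR-5121 spell the C box letters UGAUGA, in capitals here because they are the letters that name this class of RNA.
miR-5121: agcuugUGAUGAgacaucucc
miR-5121 hairpin, mature part in capitals: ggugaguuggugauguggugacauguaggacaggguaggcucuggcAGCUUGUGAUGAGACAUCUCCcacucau

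UGAUGA stood in 12 of the 1679 mature sequences (0.715%) and in 27 of the 1005 hairpins (2.69%). Its complement stood in 6 mature sequences and 11 hairpins. The match gives letters and position only and does not show which RNA was on the array. The D box letters CUGA were absent from the miR-5121 hairpin and are common, in 43.0% of hairpins, with their complement in 38.6%. Their absence is uninformative here. The hairpin reaches only 28 of the 82 bases of Snord33, at the end with the C box letters, so a D box near the other end lies outside it.

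**Figure D1:**
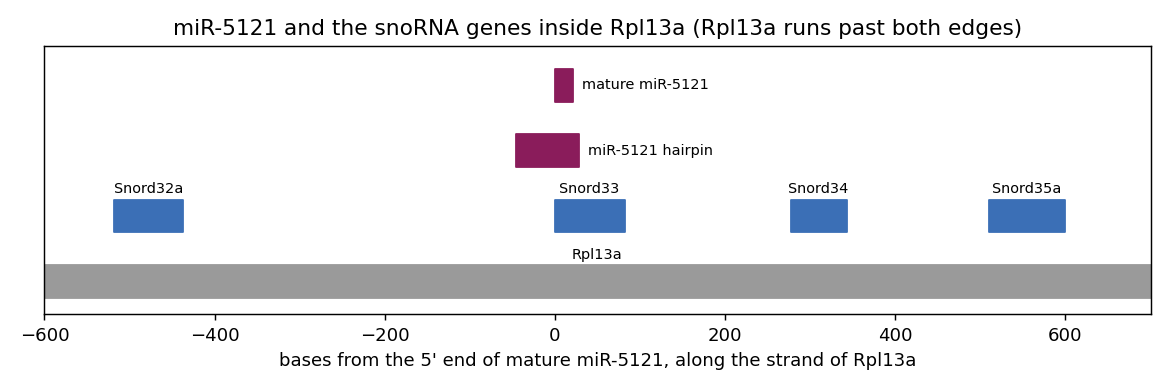
Gene positions in RefSeq (GRCm38.p6) around miR-5121, in bases from the 5′ end of the mature miRNA along the strand of Rpl13a; bars are snoRNA genes (blue), the miRNA and its hairpin (purple) and Rpl13a (grey, running past both edges). The 21 bases of mature miR-5121 start at the same base as Snord33 and lie wholly inside its 82 bases.

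On the arrays miR-5121 was dim in sham and clearly above background in OVX. Its longer probe had a processed signal (brightness after background subtraction, in arbitrary units) of 33.2 ± 3.95 in sham and 225 ± 12.2 in OVX (SD, 15 spots each). Its shorter probe had 18.8 ± 4.03 in sham and 136 ± 15.8 in OVX (SD, 15 spots each). In sham only 8 of the 15 spots of the shorter probe were well above background, against 15 of 15 for the longer, and the lowest mean signal of any probe counted as present there (over 50% of its spots well above background) was 17.8. No OVX spot overlapped a sham spot for either probe before scaling. The highest sham spot of the longer probe read 40.8 and its lowest OVX spot 204. Such a lack of overlap, in either direction, was common, in 76% of the 350 probes measured on both arrays.

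The miRNA probes well above background were brighter on the OVX array, by 1.01 on the log2 scale (2.02-fold) at the 75th percentile. This is over the 350 probes that stood well above background on each of the arrays. The negative control spots were not brighter in OVX, with a mean of 1.36 against 1.93 in sham. The median difference over the 197 measured miRNAs was 0.97 without scaling and 0.63 with scaling to 28 control probes. Unless another setting is named, differences are OVX minus sham on the log2 scale, with the 75th percentile set equal on the arrays. Their error is the standard error between spots of a probe within the array (spot SE), which holds no variation between animals. miR-5121 was 3.47-fold higher in OVX, a difference of 1.79 (spot SE 0.05), with its probes at 1.84 and 1.74. It was the highest of the 197 miRNAs measured on both arrays. The nearest other miRNA with 2 measured probes, miR-142a-5p of blood cells, was at 1.08. The 2-fold line was passed upwards by 4 of the 197 (2.03%) and downwards by 4 (2.03%). With normexp background correction and quantile normalization miR-5121 was at 0.82 and no measured miRNA reached 2-fold, while the other 13 settings gave it 1.61 to 2.81.

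Few mature miRNAs overlap another small RNA gene in RefSeq: 11 of 1679 (0.655%) did, and miR-5121 was the only one of the 6 printed above. All 11 are on the array, and 3 were measured on both arrays. Besides miR-5121 these were miR-664-5p, which lies inside the H/ACA snoRNA gene Snora36b and differed by -1.04 (spot SE 0.10), and miR-3069-3p, which lies inside Scarna13, a guide RNA of Cajal bodies, and differed by -0.96 (spot SE 0.07, 1 probe). Both were dim, with brightest probes of 22.9 and 36.5 in sham and 22.6 and 37.9 in OVX, so their unscaled signals were nearly level between the arrays while that of miR-5121 was not. The other arm of the miR-664 hairpin, miR-664-3p, had no probe with over 50% of its spots well above background on either array.

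A second list, chosen by name, held 13 miRNAs that are or were said to come from snoRNA, ribosomal RNA spacer or tRNA. It had 8 entries on the array and 2 measured on both. These were miR-664-5p and miR-1839-3p, at 0.60 (spot SE 0.04) with a brightest probe of 72.9 in sham and 219 in OVX. miR-712-5p, whose sequence lies in a ribosomal RNA spacer, was present on the OVX array only, with 1 of 4 probes and a signal of 34.3 against 15.3 in sham. More miRNAs were present on the OVX array in general, 299 against 202 on sham. Of the 2 measured entries of that list 1 passed 2-fold, miR-664-5p, where 8 of all 197 measured miRNAs did (4.06%). The median of the 2 differences was -0.22, against -0.04 over all 197, and 2 values are too few to describe the list.

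miR-5100 and miR-3968 hold letters of a tRNA T arm. CGAAUCC was found in 2 of 1679 mature sequences (0.119%), and those were miR-5100, at bases 2 to 8, and miR-3968, at bases 1 to 7. They share a run of 9 letters, in capitals here.
miR-5100: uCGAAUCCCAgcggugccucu
miR-3968: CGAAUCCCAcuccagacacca

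The complement of CGAAUCC stood in 1 mature sequence, which was none of these. Among hairpins 4 of 1005 (0.398%) held CGAAUCC, including both. The longer form UUCGAAU was in no mature sequence and in 3 hairpins (0.299%), and its complement in neither kind. One of the hairpins was that of miR-5100, where a U comes just before the mature part.
miR-5100 hairpin, mature part in capitals: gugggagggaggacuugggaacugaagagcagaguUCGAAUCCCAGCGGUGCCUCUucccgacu

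For miR-5100 a tRNA gene with the same letters lay within reach of the reference. Bases 1 to 19 of its 21 matched the tRNA gene n-TTagt9 of 74 bases, which lies in the window around the start of Gm38989. On the strand that spells the miRNA, the match ends at the last base of the tRNA gene. The 14-base probe of miR-5100 covers 12 bases of this run and the 13-base probe 11, so the last 2 bases of each probe's target lie outside the tRNA gene. The CCA added to mature tRNAs is not in the gene and was not part of this match. The first of these 2 bases, C, is also the first letter of CCA, and the second, U, is not its second letter. The search covered 32851 windows of 250 bases before to 50 after a gene start. These hold only 4 of the 430 tRNA genes whole. For the other 5 printed miRNAs no run of 11 bases or more in these windows lay within another small RNA gene. This says nothing of small RNA genes outside the windows. One of these 5 is miR-5121, which lies wholly inside Snord33, and the search did not find that overlap.

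miR-3968 also ends like a mature tRNA. Its last 6 letters are ACACCA, an ending that 2 of the 1679 mature sequences had (0.119%), and a final CCA stood in 23 (1.37%), miR-6366 among them. ACACCA anywhere was in 9 mature sequences (0.536%). Its complement was in 19 (1.13%). In the RefSeq hairpin the letters go on past that end, so at this locus the CCA is in the genome.
miR-3968 hairpin, mature part in capitals: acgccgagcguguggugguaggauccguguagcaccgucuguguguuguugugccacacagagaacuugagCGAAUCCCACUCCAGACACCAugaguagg

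miR-3963 shares a run of 8 letters with miR-3968, at bases 4 to 11 of each, and it ends on the ACAC that comes before the final letters of miR-3968. It has neither CGAAUCC nor a final CCA.
miR-3963: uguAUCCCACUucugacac
miR-3968: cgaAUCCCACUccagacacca

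The hosts of these entries were unlike each other. miR-5100 lies inside Mief2, a gene for a mitochondrial outer membrane protein, on the same strand. miR-3968 lies within the span of Trim80 but on the opposite strand, and miR-8117 lies within the lncRNA Gm40301 on the same strand. miR-6366 lies in no annotated gene, 4345 bases from the nearest, the lncRNA Gm34679. miR-3963 is also outside genes, and the nearest, the lncRNA 4930555A03Rik, is 270300 bases away. miR-6360 lies within Mapre2, which encodes a microtubule end-binding protein. miR-1949 lies within Snhg4, a non-coding host gene that also holds the snoRNA gene Snora74a, 2394 bases from it. Among 1228 mouse miRNA genes, 44 (3.58%) lie inside a gene that also holds a snoRNA, and 2 of the 8 did, miR-5121 in Rpl13a and miR-1949 in Snhg4.

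All 8 names lack the suffix 5p or 3p that is given when both arms of a hairpin are annotated, which was so for 321 of the 1881 miRNAs on the array (17.1%) and for 48 of the 197 measured (24.4%). Among the 61 other measured miRNAs numbered 1900 or above it was so for 21 (34.4%). The predicted folds of the 6 printed hairpins varied. miR-3968 had a minimum free energy of -28.9 kcal/mol per 100 bases, weaker than 90.8% of the 1005 hairpins, and 61.9% of its mature bases were paired, against a median of 81.0%. miR-6366 had -45.9 kcal/mol per 100 bases, past the median of -40.6, but only 68.2% of its mature bases were paired. For miR-5121 66.7% of the mature bases were paired, a share below which 7.72% of the mature sequences fell. miR-8117 sat at the median with 81.0%.

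By their level, the mean of the measured probes, miR-6366 and miR-3963 were the brightest of the 197 miRNAs on both arrays. miR-5100 ranked 8 in sham and 7 in OVX, and miR-3968 ranked 10 and 9. Probes differ in how brightly they bind, so this order is not one of abundance. The shorter probe of miR-6366 read 23036 ± 3403 in sham and 50075 ± 5347 in OVX, and the longer 10760 ± 994 and 24086 ± 2138 (SD, 15 spots each). This 11-base probe was the brightest miRNA probe on both arrays. The longer probe of miR-3963 read 16876 ± 2344 in sham and 34251 ± 3510 in OVX (SD, 15 spots each), and the shorter 6413 ± 549 (14 spots) and 12648 ± 1254 (15 spots).

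For miR-5100 the longer probe read 2288 ± 219 in sham and 5379 ± 542 in OVX (SD, 15 spots each), and the shorter 332 ± 37.5 (14 spots) and 795 ± 115 (15 spots). The longer probe of miR-3968 read 1893 ± 459 in sham (15 spots) and 4287 ± 363 in OVX (14 spots). Its sham spots were the most uneven of the bright probes, from 811 to 2336 with a median of 2101. Its shorter probe read 174 ± 18.7 in sham (14 spots) and 380 ± 23.7 in OVX (13 spots), far dimmer although it lacks only 1 base. Neither group of spots overlapped the other: without scaling every spot of these 4 miRNAs was brighter in OVX than any of its probe's spots in sham, in 8 of 8 probes. The same was so, in either direction, for 76% of all 350 measured probes.

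Before scaling, these 4 bright entries had probe ratios of 1.97 to 2.39, against 2.02 at the 75th percentile of the 350 measured probes. After scaling they differed by 0.23 (spot SE 0.04) for miR-5100, 0.14 (spot SE 0.05) for miR-3968, 0.13 (spot SE 0.04) for miR-6366 and -0.01 (spot SE 0.04) for miR-3963. Such small differences also rest on the scaling. With scaling to the control probes miR-5100 was at 0.90, miR-3968 at 0.81, miR-6366 at 0.80 and miR-3963 at 0.66. The median over all measured miRNAs was 0.63 in that setting. With the 75th percentile set equal, the spots of these 4 miRNAs overlapped between the arrays in all 8 probes. Among all measured probes 37.1% had no overlap after scaling. In this reported setting the values of miR-3963 are as small as its spot SE. The sign of this miRNA changed with the setting, as did that of miR-6366 and miR-3968 with median scaling (-0.06 and -0.04). The miRNAs nearest to them in difference, among those with 2 or more measured probes, were miR-20a-5p (0.24) for miR-5100 and miR-6393 (0.14) for miR-3968. They were miR-30a-5p (0.13) for miR-6366 and miR-500-3p (-0.01) for miR-3963. These likenesses rest on 1 difference between 2 arrays.

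**Figure D2:**
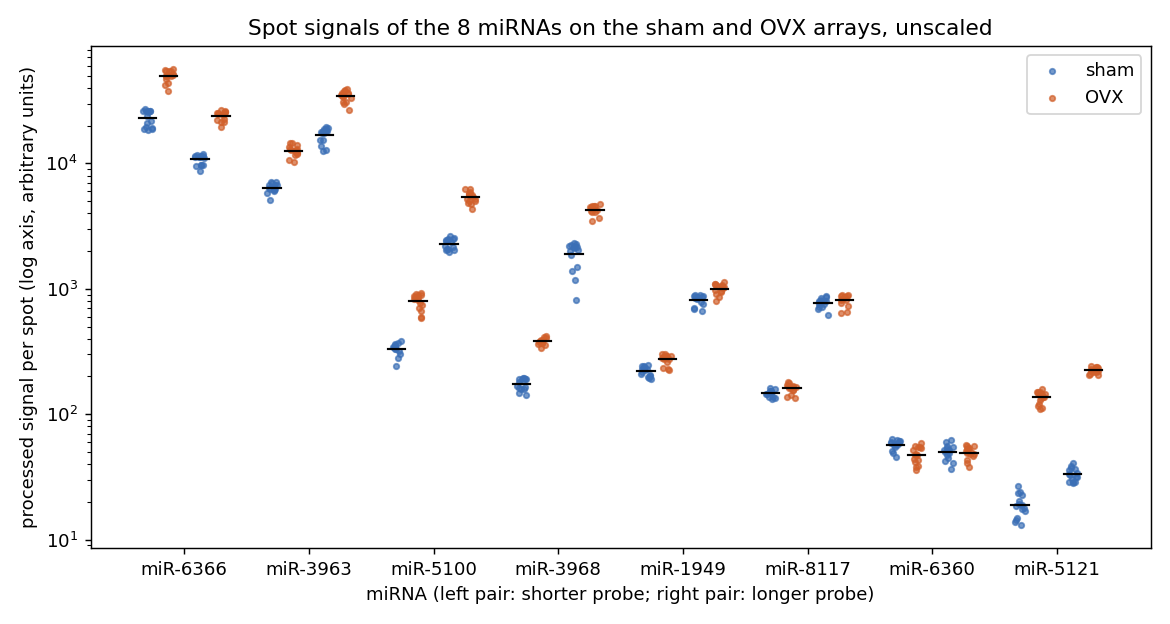
Processed signal of each spot without an outlier flag (log axis, arbitrary units, unscaled) for the shorter and the longer probe of each of the 8 miRNAs, sham in blue and OVX in orange, with black bars for the means. The OVX spots lie above all sham spots for miR-6366, miR-3963, miR-5100, miR-3968 and miR-5121 and overlap them for miR-1949, miR-8117 and miR-6360.

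The 3 miRNAs with the lower relative values kept nearly the same unscaled signal on both arrays, with probe ratios of 0.832 to 1.24. The 75th percentile of the measured probes was 2.02-fold higher in OVX. The longer probe of miR-8117 read 776 ± 68.8 in sham and 815 ± 82.8 in OVX (SD, 15 spots each), and the shorter 147 ± 8.99 and 161 ± 13.9 (14 spots each). The longer probe of miR-1949 read 816 ± 75.2 in sham and 1003 ± 91.8 in OVX, and its shorter probe 220 ± 18.9 and 274 ± 25.5 (SD, 15 spots each). miR-6360 was dim, with 50.1 ± 7.06 in sham and 49.5 ± 5.55 in OVX for the longer probe and 57.2 ± 5.08 and 47.6 ± 7.25 for the shorter (SD, 15 spots each). For all 6 probes the spots of the 2 arrays overlapped before scaling and did not overlap after it. Of all 350 measured probes 76% had no overlap before scaling and 37.1% had none after it. Nothing is read from the count over the 6 probes, because differences helped to choose these miRNAs.

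After scaling, miR-6360 was at -1.15 (spot SE 0.05), or 0.449-fold, the third lowest of the 197, with its probes at -1.28 and -1.03. Its neighbour in difference was miR-664-5p at -1.04. miR-8117 was at -0.91 (spot SE 0.03), with probes at -0.94 and -0.89, next to miR-3620-3p at -0.90. miR-1949 was at -0.71 (spot SE 0.03), with probes at -0.72 and -0.70, next to miR-486a-5p at -0.71. These values rest on the scaling. Without it miR-8117 was at 0.10, miR-1949 at 0.31 and miR-6360 at -0.14, against a median over all measured miRNAs of 0.97. With scaling to the control probes they were at -0.24, -0.03 and -0.48, against a median of 0.63. miR-8117 passed 2-fold with median scaling alone (-1.10). The share of all measured miRNAs past 2-fold in either direction was 49.2% without scaling, 21.8% with control-probe scaling, 7.11% with median scaling, 7.61% with the 75th percentile of all probes and 5.08% with quantile normalization. It was 4.06% with the brightest probe or the sum of probes, 5.08% with spot medians and 3.55% with the GC trend removed. With normexp background correction it was 0%. Other settings changed the number of miRNAs measured. The share was 4.55% of 198 with outlier-flagged spots kept and 4.46% of 157 where every spot had to be well above background. It was 60.2% of 1881 without a filter on dim probes and 18.9% of 281 in the authors' deposited table.

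**Figure D3:**
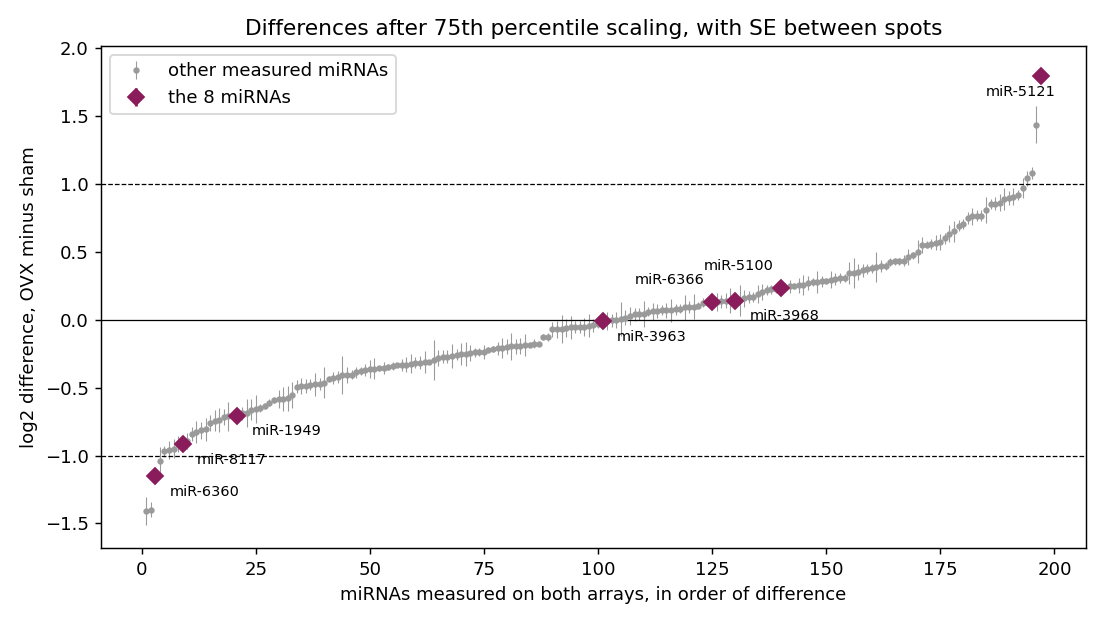
Log2 difference, OVX minus sham, of the 197 miRNAs measured on both arrays, in order, with bars for the SE between spots; the 8 miRNAs are purple diamonds and dashed lines mark 2-fold. miR-5121 (1.79) is the highest point, miR-6360 (-1.15) lies below the lower line, and miR-3963, miR-6366, miR-3968 and miR-5100 lie within 0.23 of 0.

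Values above 0 and below 0 were equally many, 4 each, and the 8 had a median of 0.06, against 93 above, 104 below and -0.04 over all 197. Past 2-fold were 2 of the 8, 1 in each direction, where 4.06% of all measured miRNAs passed in either direction. Nothing is read from that share, because these differences helped to choose the members. The 2 probes of a miRNA differed in their difference by 0.02 (miR-1949) to 0.25 (miR-6360). Over the 139 miRNAs that had at least 2 measured probes the median gap was 0.088 and the 90th percentile 0.248. All 8 gaps lay below that percentile, but that of miR-6360 (0.247) only just. Agreement of this kind leaves out errors common to both probes, which share nearly all their bases and the array.

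The 8 were also set against the other miRNAs with high numbers. Of the 1881 miRNAs 782 have a number of 5000 or above, and 50 of these (6.39%) were measured on both arrays, against 99 of 616 (16.1%) with a number under 500. The entries from 1900 to under 5000 had 19 of 226 measured (8.41%) and those from 500 to under 1900 had 29 of 257 (11.3%). Median differences were 0.06 under 500, 0.14 from 500 to under 1900, -0.20 from 1900 to under 5000 and -0.10 from 5000 upwards. The probes of the measured miRNAs differ in base composition between these bands, with a median GC content of 47.4% under 500 and 66.7% from 5000 upwards. Differences also moved with it, from a median of 0.31 for the 50 miRNAs with probes under 45% GC to -0.19 for the 73 above 60%. The part of base composition in the difference between bands was not tested.

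Among the 61 measured miRNAs numbered 1900 or above that are not among the 8, 19 lay above 0, 42 lay below it, the median was -0.19, and 2 passed 2-fold. The brightest of these 61, by their brightest probe, were miR-3473b (-0.18), miR-3082-5p (-0.13), miR-7042-5p (-0.65) and miR-8110 (0.29). All 4 were brighter than miR-5121 and miR-6360, and miR-3473b was also brighter than miR-8117. The largest differences among the 61 were those of miR-7686-5p (-1.41, 1 probe), miR-6997-5p (-1.40), miR-7047-5p (-0.97) and miR-3069-3p (-0.96, 1 probe), which shows that the choice of the 8 was not by a strict cut. With a linear GC trend removed, miR-6366 went from 0.13 to 0.44 and miR-5100 from 0.23 to 0.41, and the other 6 moved by less.

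**Figure D4:**
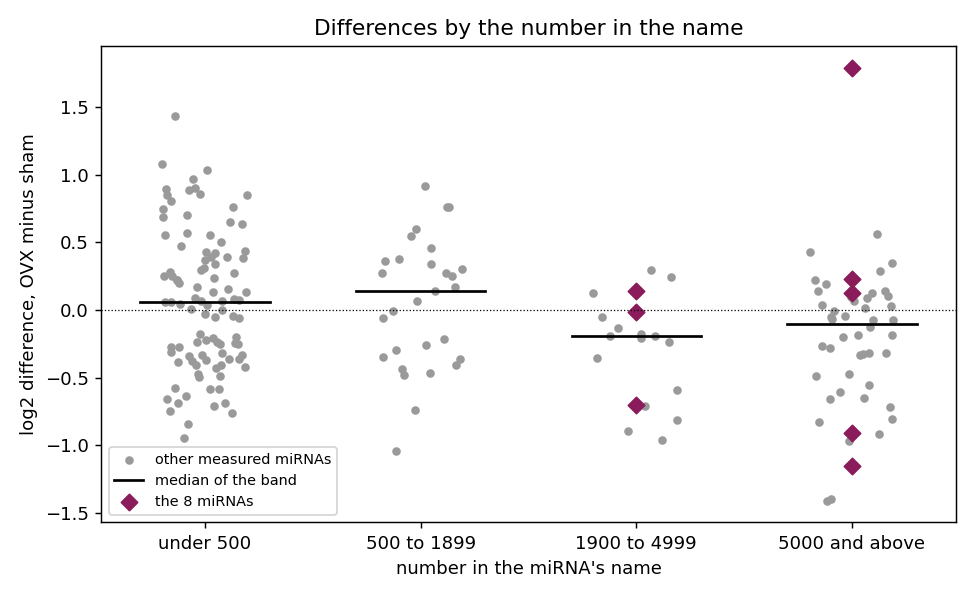
Log2 difference, OVX minus sham, of the 197 measured miRNAs by the number in the name; the 8 miRNAs are purple diamonds and black lines are band medians. The medians lie at 0.06 and 0.14 in the bands below 1900 and at -0.20 and -0.10 in the bands above, and the 5 diamonds from 5000 upwards span -1.15 to 1.79.

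The arrays carried miRNAs of blood cells, endothelium and cartilage, but little of those listed for osteoblasts and stroma. The red-cell miRNAs miR-451a and miR-144-3p, the myeloid miR-223-3p and the blood-cell miR-142a-3p were present with both probes on both arrays. So were the endothelial miR-126a-3p and the cartilage miR-140-3p. The lymphocyte miR-150-5p was present with 1 of 2 probes on the sham array and both on the OVX array. Of the miRNAs of osteoblasts and stroma, miR-199a-3p was present only on the OVX array, with 1 of 2 probes (22.6 against 8.12 in sham). The other, miR-214-3p, was present on neither array (5.71 in OVX and 0.02 in sham). Over all miRNAs 299 were present on the OVX array and 202 on sham. The muscle miRNAs miR-1a-3p and miR-206-3p were not counted as present on either array and miR-133a-3p was present on the sham array only, with 1 of 2 probes. The liver miR-122-5p and the neuronal miR-124-3p were not counted as present on either. These markers moved between the arrays too, from -0.63 for miR-223-3p to 1.43 for miR-150-5p among those measured, and their part in the values of the 8 miRNAs was not tested.

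**Figure D5:**
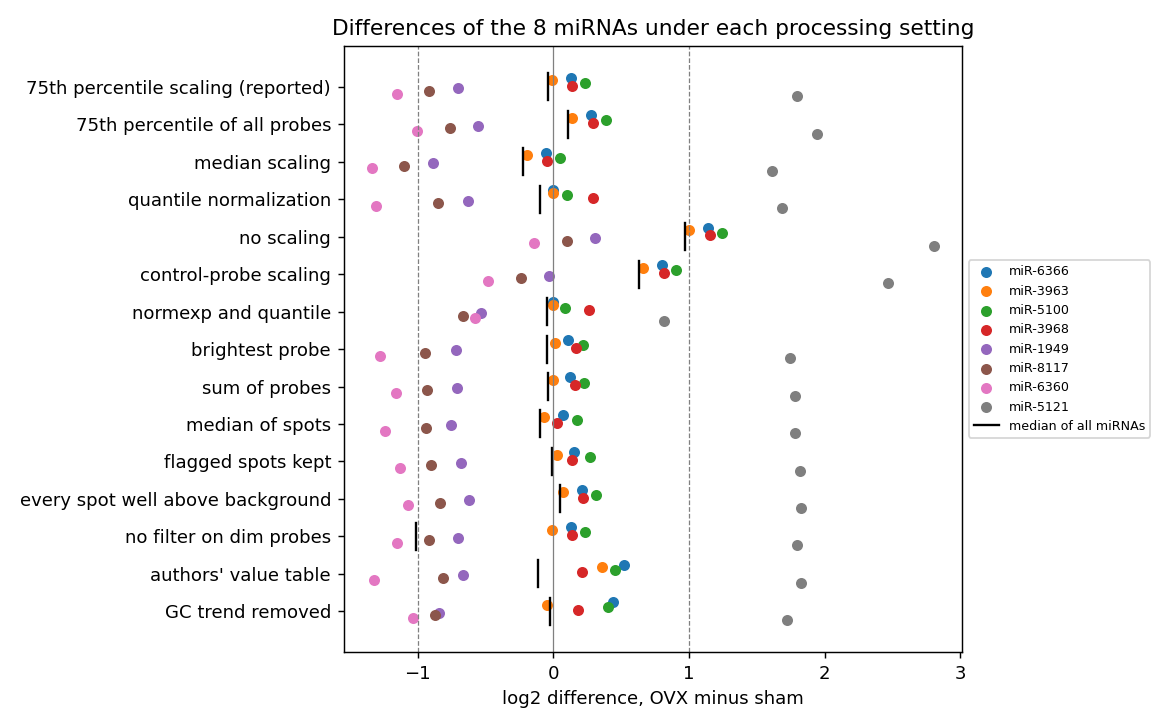
Log2 difference, OVX minus sham, of the 8 miRNAs (coloured points) under the reported setting and 14 alternatives, with a black bar for the median of all miRNAs in that setting and dashed lines at 2-fold. miR-5121 is the highest point in every setting, from 0.82 to 2.81, and without scaling miR-8117 (0.10) and miR-1949 (0.31) lie above 0.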

How the data were processed

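The scanner files, deposited per sample, hold spot intensities from Agilent Feature Extraction, version 10.7.1.1 per the file headers and 11.0.1.1 per the submitters' processing notes. The processed intensity is background-subtracted and detrended across the array by the scanner software and is not normalized between arrays, per the file headers. Mean and local background intensities are uncorrected. The labels name a cRNA amplification kit, unusual for a miRNA array. The authors' deposited value table holds log2 values, and how they were normalized or centred is not given in the sources used here. The floors, at which its column medians lie, are -3.18 (sham) and -3.32 (OVX). Its names matched the scanner values only when moved by 1 row (Spearman 0.965 on sham and 0.967 on OVX over detected miRNAs), so it was used that way, as an alternative.

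Of the 58594 spots on each array 56430 are for miRNAs. Control spots and outlier-flagged spots (2.75% of miRNA spots on sham, 2.90% on OVX; 4 of the members' 240 on each) were left out, and none was saturated. A probe was present when over 50% of its spots were well above background. The mean processed signal of each probe was taken to log2, less the 75th percentile that the 350 probes present on both arrays had on that array, and a miRNA is the mean of its probes. With 1 sample per group no test was possible; precision is limited by there being 1 array a group.

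The members and lists were chosen with earlier results of these data known. Named were the 8 members, the nearest miRNA in difference, the measured miRNAs of the fixed lists, the hosts or neighbours, and markers. RefSeq (GRCm38.p6) gave sequences and neighbours, and 1608 of the 1881 miRNAs matched a mature sequence by name. Hairpins were folded with RNAfold 2.7.2 at 37 degrees. Normexp used limma 3.58.1 with an offset of 50, and the rest Python 3.11.15. The 14 alternatives were other scalings, background correction, spot and probe summaries, dim-probe filters, removal of a GC trend and the value table. The comparison was tested on simulated spots.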

Additional observations from a re-analysis of the deposited data

How the results depend on the processing

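Of the 8 miRNAs 2 were at least 2-fold different as reported. Unscaled arrays gave 5, scaling to control probes gave 1, and normexp with quantile normalization gave 0. It was 2 or 3 under the other 11 alternatives. Among all measured miRNAs 8 passed 2-fold as reported. Scaling to the 75th percentile of all probes gave 15, to the median 14, to control probes 43, and unscaled arrays gave 97. The number was 0 with normexp. It was 53 of 281 in the authors' deposited value table and 1133 of 1881 without a filter on dim probes, where unlit probes at the floor enter. miR-5121 (0.82 to 2.81), miR-5100 (0.05 to 1.25) and miR-6360 (-1.34 to -0.14) kept their sign under all 14. miR-8117 and miR-1949 changed sign without scaling, miR-3968 (-0.04) with median scaling, and miR-6366 was at -0.06 with median scaling and 0 with quantile normalization. miR-3963 kept its sign in 5 of 14. Quantile normalization, alone or after normexp, puts miR-6366 and miR-3963 at exactly 0, because their probes hold the same brightness ranks on both arrays. These zeros were counted as a sign not kept and carry no information on the size of the signals. In the value table miR-6366 was at 0.52, miR-5100 at 0.46 and miR-3963 at 0.36. Normexp adds an offset of 50, which draws dim differences towards 0. No paired analysis was possible because each group has 1 sample. Signal over background limits miR-5121 in sham and miR-6360 on both arrays.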
